A study of Mus musculus with 5 samples.

Results

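The nuclear factor I (NFI) family consists of 4 genes in the mouse, Nfia, Nfib, Nfic and Nfix, which are 4 of the 21938 protein-coding genes annotated on chromosomes 1 to 19, X and Y. NEUROD2 binding at these loci was taken from ChIP-Seq peak lists. A locus was the span of the longest transcript of the gene plus 50 kb on either side, every peak whose midpoint fell in it was counted, and peaks that overlapped by at least 1 bp were merged into a region. The 4 loci together held 100 of the 53833 merged regions of the genome. Of these, 66 contained peaks of at least 2 antibodies and are called shared regions, against 32261 shared regions genome-wide. The family was chosen by a measured value of the same peak lists, the closest-gene score of Nfix, which was among the highest of all genes, so the density of regions at Nfix and the scores are given as a description and were not tested.

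Chromatin came from the dissected cerebral cortex of BALB/c mouse embryos at E14.5, a mid-gestation stage (E for embryonic day), pooled from several litters for each precipitation. It was precipitated with 3 antibodies against NEUROD2, namely ab1 from mouse and the rabbit antibodies ab2 and ab3, and each precipitate was sequenced as 1 library. Antibodies against GFP, a protein that these mice do not make, gave the control libraries used in peak calling, and no GFP peak list was analysed here. All animals were untreated and of 1 genotype, so the 3 libraries measured a single condition, ab2 and ab3 shared the rabbit control, and a spread over antibodies contains no biological replicate. Peak numbers were 51841 (ab1), 35310 (ab2) and 7470 (ab3), and the read depth behind a peak cannot be read from them.

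NFI proteins are site-specific DNA-binding factors that bind as dimers to a palindrome of TTGGC and GCCAA separated by 5 bases, and they act as activators or repressors of transcription. In the developing forebrain NFIA, NFIB and NFIX are known for driving radial glial progenitors towards differentiation, for gliogenesis and for the formation of the corpus callosum and hippocampus, whereas NFIC is best known from tooth root development. NEUROD2 is a basic helix-loop-helix factor of young excitatory projection neurons and binds E-boxes, loosely written CANNTG. A longer form, CA followed by G or T, then C or A, then TG and a final G or T, is called the extended E-box below and was searched on both strands. The authors derived this motif from the peaks of these same libraries, so its share in them is a description.

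Sequences of 200 bp around the midpoints of selected regions are given, first for the highest-ranking and the promoter-proximal regions. The deposited lists give no summit position and many regions were far wider than 200 bp, so these windows need not lie under the highest signal. They were read from the plus strand of mm10 (GRCm38, RefSeq copy of the C57BL/6J reference), so differences of the BALB/c genome are not seen. Capitals mark the extended E-box on either strand. The first set holds the highest-ranking region of each locus, where rank is the mean over the 3 antibodies of the percentile of the region's score within that antibody's own peaks. An antibody without a peak counted as 0. The rank therefore favours regions with all 3 antibodies, which were 22.2% of all shared regions.
Nfia, intron 2, chr4:97880323-97880522: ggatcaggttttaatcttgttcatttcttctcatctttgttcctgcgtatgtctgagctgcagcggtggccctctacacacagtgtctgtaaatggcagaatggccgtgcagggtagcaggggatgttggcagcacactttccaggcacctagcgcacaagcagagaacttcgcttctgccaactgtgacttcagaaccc
Nfib, downstream of the gene, chr4:82268426-82268625: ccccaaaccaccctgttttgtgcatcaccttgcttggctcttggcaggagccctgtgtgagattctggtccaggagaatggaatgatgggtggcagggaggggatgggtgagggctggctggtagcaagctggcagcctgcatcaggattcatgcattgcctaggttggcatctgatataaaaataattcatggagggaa
Nfic, intron 2, chr10:81416950-81417149: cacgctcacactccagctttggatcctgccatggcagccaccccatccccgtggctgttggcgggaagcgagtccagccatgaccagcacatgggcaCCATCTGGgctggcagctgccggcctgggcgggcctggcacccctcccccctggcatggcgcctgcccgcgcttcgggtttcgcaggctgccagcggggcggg
Nfix, upstream of the gene, chr8:84814894-84815093: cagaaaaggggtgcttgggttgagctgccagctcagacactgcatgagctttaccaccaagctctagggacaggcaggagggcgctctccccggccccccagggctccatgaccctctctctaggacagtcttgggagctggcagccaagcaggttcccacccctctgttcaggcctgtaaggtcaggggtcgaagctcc
Only the Nfic window of these 4 contained the motif, as 1 core read on both strands at the midpoint. The other 3 windows had none, although the whole Nfix region, 3326 bp wide, contained 17 matches, the Nfib region 6 and the Nfia region 4.

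The second set holds the windows of the shared regions within 1 kb of a start site. At Nfia that window overlapped untranslated exon sequence and is not printed.
Nfib, promoter-proximal, chr4:82506079-82506278: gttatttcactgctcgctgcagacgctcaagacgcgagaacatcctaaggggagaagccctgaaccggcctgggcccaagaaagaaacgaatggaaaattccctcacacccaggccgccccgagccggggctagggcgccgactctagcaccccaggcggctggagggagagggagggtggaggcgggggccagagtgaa
Nfix, promoter-proximal, chr8:84800802-84801001: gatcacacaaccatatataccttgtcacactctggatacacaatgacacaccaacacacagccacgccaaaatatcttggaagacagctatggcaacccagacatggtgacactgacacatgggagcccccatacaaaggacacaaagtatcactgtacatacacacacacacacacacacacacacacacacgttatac
Neither window contained the extended E-box, and the Nfib window contained no CANNTG at all.

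The third set was chosen after the values had been seen and shows where the motif did occur, at the highest-ranking region with a central match at Nfia and Nfib, and at the shared region with the most central matches of all 4 loci, which lay 4.833 kb upstream of Nfix. At Nfix the highest-ranking region with a match overlapped untranslated sequence of another gene and is not printed.
Nfia, intron 2, near its start, chr4:97787643-97787842: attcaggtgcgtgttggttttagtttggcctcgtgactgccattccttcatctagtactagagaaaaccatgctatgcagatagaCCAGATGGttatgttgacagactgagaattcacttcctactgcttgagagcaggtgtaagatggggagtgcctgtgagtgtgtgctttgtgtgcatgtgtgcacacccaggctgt
Nfib, upstream, chr4:82539468-82539667: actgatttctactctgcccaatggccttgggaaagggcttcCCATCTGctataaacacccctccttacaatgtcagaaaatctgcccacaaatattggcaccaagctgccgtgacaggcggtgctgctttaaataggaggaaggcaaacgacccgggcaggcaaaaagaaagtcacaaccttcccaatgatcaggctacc
Nfix, upstream, several E-boxes, chr8:84805077-84805276: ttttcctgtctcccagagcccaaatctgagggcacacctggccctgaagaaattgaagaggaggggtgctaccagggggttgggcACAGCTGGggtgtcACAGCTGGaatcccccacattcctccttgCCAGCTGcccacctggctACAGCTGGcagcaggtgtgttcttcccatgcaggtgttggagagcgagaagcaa
The Nfix window contained 4 distinct extended E-boxes with the core CAGCTG, the Nfia window 1 with CAGATG and the Nfib window 1 with CAGATG read on the minus strand. Matches to palindromic or near-palindromic cores count on both strands, so the number of matches exceeds the number of cores.

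Peaks of all 3 antibodies were found at each of the 4 loci. Nfia, on chromosome 4 from 97777608 to 98118871 on the plus strand, had 29 ab1, 19 ab2 and 4 ab3 peaks. Nfib, on chromosome 4 from 82290173 to 82505770 on the minus strand, had 23, 17 and 1 in the same order. Nfic, on chromosome 10 from 81400953 to 81455635 on the minus strand, had 17, 13 and 3. Nfix, on chromosome 8 from 84708616 to 84800344 on the minus strand, had 32, 25 and 10, the most of the 4 genes for every antibody although its locus of 191.7 kb was shorter than those of Nfia (441.3 kb) and Nfib (315.6 kb).

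After merging, Nfia had 30 regions, of which 17 were shared and 2 had all 3 antibodies. Nfib had 24 regions with 16 shared and 1 with all 3. Nfic had 17 regions with 11 shared and 3 with all 3, and Nfix had 29 with 22 shared and 9 with all 3. The family's 66 shared regions were 66.0% of its regions, where 59.9% of all merged regions of the genome were shared. Its 15 regions with all 3 antibodies were 15.0%, near the 13.3% of all merged regions. Within the family the share of regions with 3 antibodies ran from 4.17% at Nfib and 6.67% at Nfia to 17.65% at Nfic and 31.0% at Nfix. All 66 shared regions had both ab1 and ab2, so ab3 added no shared region, and the count of 66 fell to 16 without ab1 and to 17 without ab2. Of the 34 regions with 1 antibody, 29 had ab1 only, 4 had ab2 only and 1 had ab3 only, the last one in intron 2 of Nfia.

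**Figure D1:**
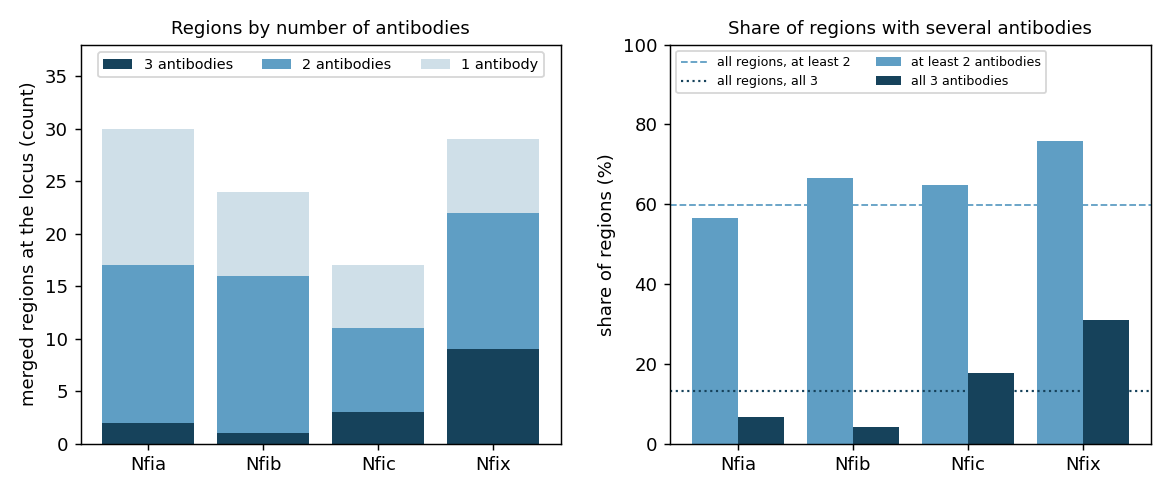
Merged regions at each locus, left as counts split by the number of antibodies with a peak and right as the percentage with at least 2 or with all 3 antibodies, with dashed and dotted lines at the same percentages over all merged regions of the genome (59.9% and 13.3%). Nfia and Nfix have nearly equal totals of 30 and 29 regions, but 2 regions at Nfia and 9 at Nfix have all 3 antibodies.

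Per length of locus the order was different from that of the totals. Shared regions numbered 3.85 per 100 kb at Nfia, 5.07 at Nfib, 7.11 at Nfic and 11.5 at Nfix, and the median over all protein-coding loci built in the same way was 0.950. Counted from each antibody's own peaks, Nfix had 11.65 ± 5.86 regions per 100 kb, Nfic 7.11 ± 4.66, Nfib 4.33 ± 3.60 and Nfia 3.93 ± 2.85 (SD over the antibodies, n = 3). These spreads are wide because ab3 had far fewer peaks than ab1, and neighbours in this order did not differ beyond them. For each single antibody Nfix was highest and Nfic next, and Nfib exceeded Nfia with ab1 (7.29 against 6.57) and ab2 (5.39 against 4.31) but not with ab3 (0.317 against 0.907). Of all protein-coding loci, 90.6% had a lower density of shared regions than Nfia, 95.6% than Nfib, 98.7% than Nfic and 99.8% than Nfix. Shared regions covered 21.1% of the Nfix locus, 11.8% of the Nfic locus, 5.60% of the Nfib locus and 4.80% of the Nfia locus.

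**Figure D2:**
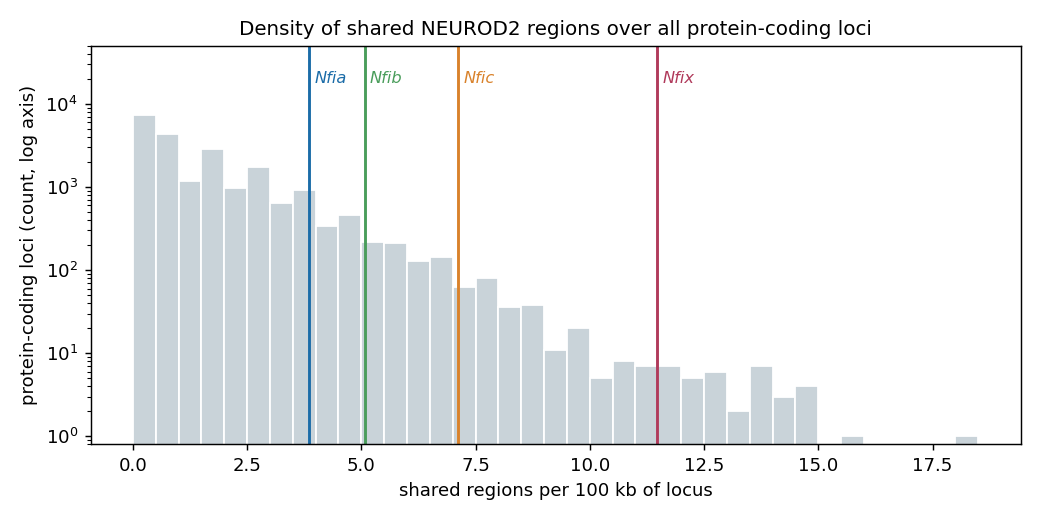
Number of protein-coding loci (log axis) by shared regions per 100 kb of locus in bins of 0.5, with vertical lines at the 4 NFI genes. The median locus has 0.950 shared regions per 100 kb, and the lines lie at 3.85 for Nfia, 5.07 for Nfib, 7.11 for Nfic and 11.5 for Nfix, below the highest locus at 18.2.

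The SoxC, Myt1 and Ebf families, whose genes encode transcription factors of differentiating neurons, were counted in the same way. The SoxC genes (Sox4, Sox11, Sox12), which promote neuronal differentiation, had 13 shared regions in total and a median over genes of 3.83 per 100 kb. Myt1, Myt1l and St18, zinc finger factors of which Myt1l represses non-neuronal genes, had 44 and a median of 2.43, with Myt1l alone at 30 shared regions and 6.06 per 100 kb. Ebf1 to Ebf4, helix-loop-helix factors of early neurons and B cells, had 53 and a median of 4.53. The NFI median was 6.09 per 100 kb (range 3.85 to 11.5). All 4 NFI genes had a region with 3 antibodies, as did 2 of 3 SoxC, 2 of 3 Myt1 and 3 of 4 Ebf genes, beside 26.7% of all protein-coding loci. No test was made between the families, and long loci collect more regions.

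By the profile of peaks per 100 kb over the 3 antibodies, compared on the log2(value + 1) scale among protein-coding loci whose length was within 1.5 times, Sez6 was among the 2 loci most like Nfix, at a distance of 0.158 over 6960 loci. Sez6 had 16.2, 12.1 and 4.72 peaks per 100 kb for ab1, ab2 and ab3, where Nfix had 16.7, 13.0 and 5.22. Nfia was closest to Tbc1d22a (0.110) and Lmntd1 (0.116) over 847 loci. Nfib was closest to Peli2 (0.112) and Pag1 (0.153) over 1747 loci, and Nfic to Gm17349 (0.0867) and Smarcd1 (0.100) over 17714 loci.

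The closest-gene score adds up, over the shared regions that lie nearer to a gene's start site than to that of any other annotated gene, with 1 start per gene taken from its longest transcript, a weight that decays exponentially with a length of 5000 bp. Nfix scored 2.755 from 10 regions and ranked 7 of the 16085 genes with such a region. Nfib scored 1.43 from 5 regions (rank 612) and Nfia 1.32 from 2 regions (rank 790), and these 3 genes passed the threshold of mean plus 1 SD at 0.993, as 13.2% of genes did. Nfic scored 0.340 from 1 region (rank 8156) and did not pass. From the antibodies' own peaks the score of Nfix was 2.82 with ab1, 2.81 with ab2 and 1.41 with ab3 (2.35 ± 0.809, SD, n = 3). The scores of the other 3 genes were 0 with ab3, and their means were 1.12 ± 0.983 for Nfib, 0.698 ± 0.6645 for Nfia and 0.228 ± 0.197 for Nfic (SD, n = 3). Computed from shared regions without ab1 or without ab2, the scores of these 3 genes were 0, while that of Nfix was 1.503 without ab1 and 1.45 without ab2. The score of Nfix chose the family and is no finding.

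Nfix was highest and Nfib above Nfia in both the score and the density of shared regions. Nfic was lowest in this score but above Nfia and Nfib in density. The place of Nfic above Nfib depended on the peak cut. With peaks scoring at least 100, the density at Nfic fell to 2.586 per 100 kb, below that of Nfib and above that of Nfia. With 1 start per gene, 18 of the 66 shared regions lay closest to the start site of the NFI gene itself. When protein-coding genes alone competed for a region, 33 did, and all 16 shared regions at Nfib were then closest to Nfib. When the starts of all annotated transcripts of every gene competed instead, an alternative chosen after seeing the data, 34 of the 66 lay closest to the NFI gene, with 13 of 17 at Nfia, 5 of 16 at Nfib, 4 of 11 at Nfic and 12 of 22 at Nfix. The scores were then 4.23 for Nfia (rank 60 of 15412 genes), 2.78 for Nfib (rank 213), 2.68 for Nfic (rank 242) and 5.62 for Nfix (rank 16), so Nfic ranked far higher than with 1 start per gene. By that single start, 8 shared regions at Nfia, among them both regions with 3 antibodies, were assigned to E130114P18Rik, 9.695 to 172.8 kb away, although both regions with 3 antibodies lay over starts of shorter Nfia transcripts. In the same way 5 of the 11 shared regions at Nfic were assigned to Mir1191b and Gm16104, a small RNA and an antisense gene inside Nfic. At Nfix, 6 regions were closest to G430095P16Rik, 2 to Gadd45gip1 and 1 each to Calr, Dand5 and Lyl1. A region within 50 kb of a gene is therefore counted for that gene by position only, and which gene it acts on was not measured.

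**Figure D3:**
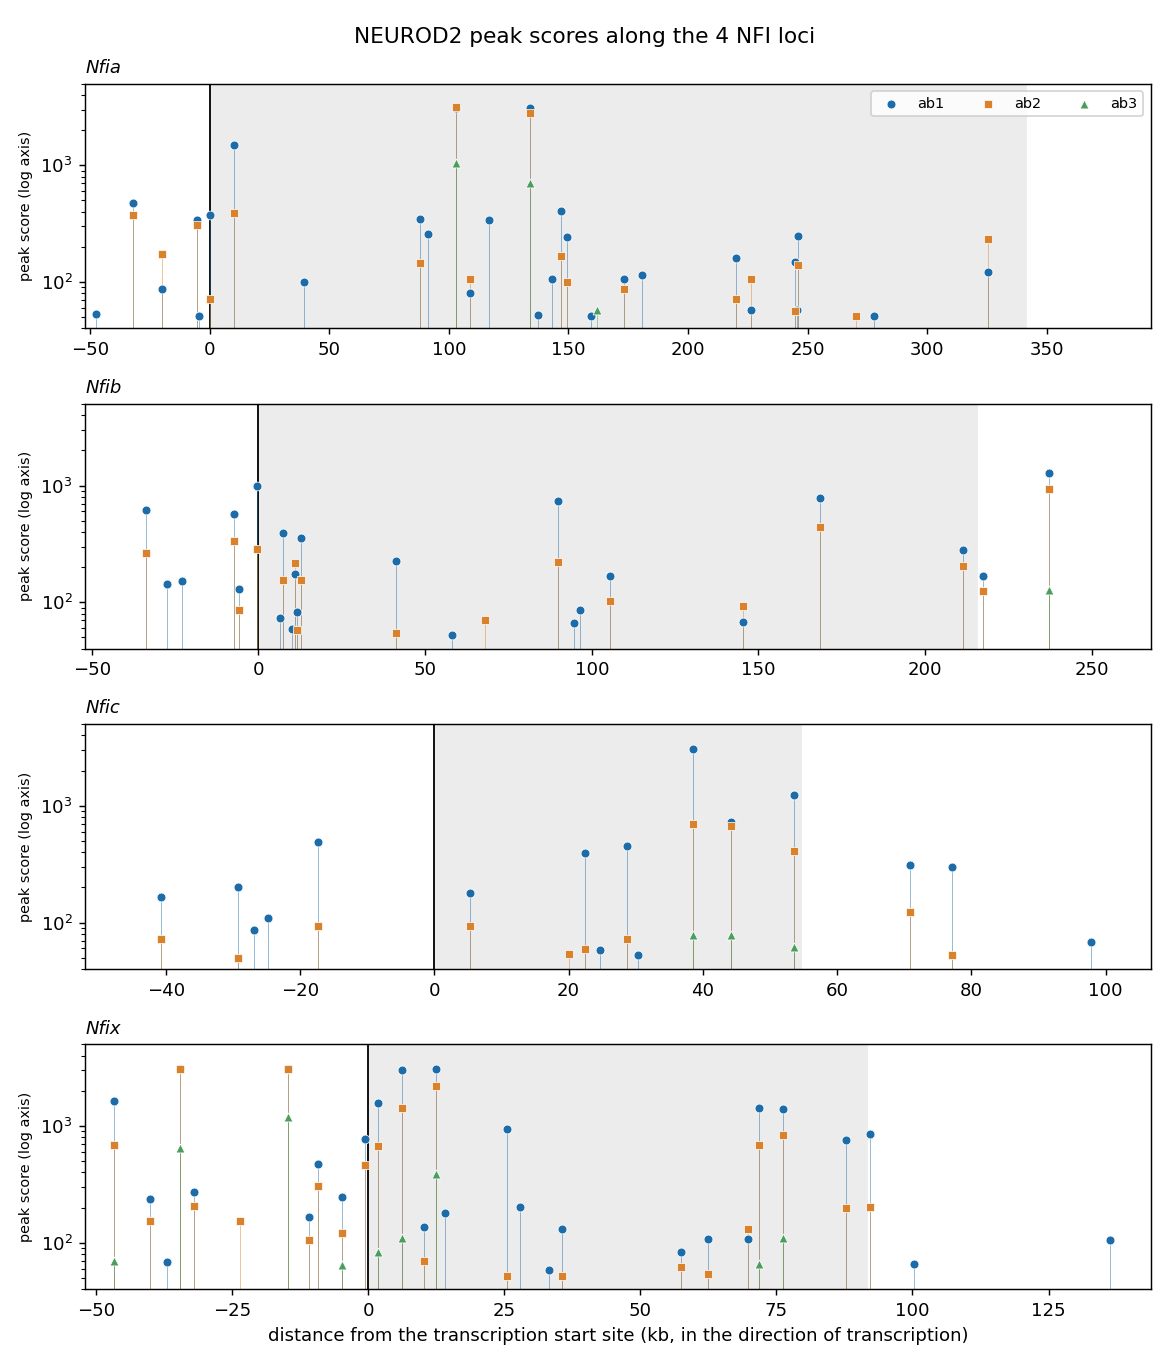
Peak score (log axis) of each antibody in every merged region against the distance of the region's midpoint from the transcription start site in kb, with the gene span in grey and the start site as a black line. Where ab1 and ab2 both score 3100 their points coincide. High scores with ab3 stand at 2 places in Nfia and upstream and in intron 1 of Nfix, and the start of Nfic has no region within 5 kb.

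Shared regions at Nfix formed groups upstream of the start site, in intron 1 and near the end of the gene. The highest-ranking one lay 14.65 kb upstream, at 84813331 to 84816656 on chromosome 8, between Nfix and Dand5, which encodes a secreted antagonist of Nodal and BMP signals. It scored 3100 with ab1, 3100 with ab2 and 1202 with ab3, and 99.96% of all shared regions had a lower mean percentile. A score is 10 times the −log10 of the p-value from peak calling, 3100 is a value at which 661 ab1 peaks and 62 ab2 peaks tie, so the order among those peaks is not known. The next region lay 34.64 kb upstream, inside the neighbouring gene Gadd45gip1, and scored 3100, 3100 and 650.8 for ab1, ab2 and ab3. Their percentiles were 98.4 or higher in every antibody's list.

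Intron 1 of Nfix, 27.7 kb long and 30.2% of the gene span, contained 5 of the 12 intronic shared regions and 3 with all 3 antibodies. The region 12.51 kb from the start scored 3100 with ab1, 2208 with ab2 and 392.0 with ab3. The region at 6.279 kb scored 3048, 1435 and 110.5, and that at 1.749 kb, which lay over 2 annotated alternative starts, scored 1565, 679.0 and 83.59. All 3 antibodies gave the same order of these 3 regions. The promoter-proximal region, 558 bp upstream of the start at 84800214 to 84801590, scored 769.8 with ab1 and 466.8 with ab2 and had no ab3 peak.

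The 4.833 kb upstream region with the E-box cluster printed above had all 3 antibodies at modest scores of 244.4, 120.9 and 65.08. Towards the gene's end, a region in intron 2 scored 1435, 682.7 and 65.37 and one in intron 6 scored 1399, 844.1 and 109.6. Beyond 40 kb upstream, a region over the start of Calr, an endoplasmic reticulum chaperone, scored 1633, 684.7 and 70.28 with its midpoint 10 bp from that start. The highest region of a single antibody at Nfix was an ab1 peak of 204.0 in intron 1, 27.94 kb from the start. At this locus the high scores of the 3 antibodies fell in shared regions, and the single-antibody regions scored at most 204.0.

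At Nfia, shared regions spread over the long gene, and 2 of them stood far above the rest. Both lay in intron 2, which is 172.8 kb long, makes up 50.6% of the gene span and contained 8 of the 14 shared regions inside the gene. The first, at 97879535 to 97881311, lay over the start of an alternative coding transcript 102.5 kb from the main start and scored 3100 with ab1, 3136 with ab2 and 1043 with ab3. The second, at 97909891 to 97913026, lay over the start of a noncoding Nfia transcript at 133.4 kb and scored 3100, 2815 and 711.0. Of all shared regions, 99.92% and 99.74% had a lower mean percentile. The next region, 10.13 kb into the gene, scored 1501 with ab1 and 388.1 with ab2 and had no ab3 peak, and no other shared region of the locus had an ab1 score above 470.4.

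The region at the Nfia start, with its midpoint 135 bp inside the first exon in untranslated sequence, was 2506 bp wide and scored 375.1 with ab1 and 70.82 with ab2. All 8 start sites of Nfia in GENCODE M21 lay under a shared region, 5 of them under this one. The highest single-antibody region was an ab1 peak of 342.6 in intron 2. Downstream of Nfia no region fell within 50 kb of the gene's end.

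Nfib had a flatter profile. Its only region with 3 antibodies lay downstream of the gene, at 82267960 to 82269091, and scored 1281 with ab1, 934.7 with ab2 and 127.8 with ab3. The region nearest the start was the widest at the locus at 4231 bp, had its midpoint 409 bp upstream, and scored 982.4 with ab1 and 287.0 with ab2. It covered 6 of the 8 start sites in GENCODE M21. A region in intron 6 scored 783.6 and 441.2 with ab1 and ab2. Intron 2, 114.6 kb long and 53.1% of the span, contained 6 of the 10 shared regions in the gene, and a cluster of shared regions lay between 7.513 and 12.79 kb from the start, in coding exon 2 and the beginning of intron 2. One shared region lay in the 3' untranslated exon, with 282.9 and 206.1 for ab1 and ab2. The highest single-antibody region was an ab1 peak of 153.2, which lay 23.07 kb upstream.

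Nfic had its strongest regions in the second part of the gene. A region in intron 2, 38.59 kb from the start at 81416382 to 81417718, scored 3057 with ab1, 695.7 with ab2 and 77.71 with ab3. A second one in intron 2, at 44.17 kb, scored 729.9, 670.0 and 78.55, and one in intron 9, at 53.62 kb, scored 1230, 412.1 and 61.86. The ab3 scores of these 3 regions were below the ab3 median of 90.9 over all regions with 3 antibodies, while their ab1 percentiles ran from 86.45 to 98.53. No shared region lay within 1 kb of the main start, and the nearest was 5.390 kb into intron 1 with 178.8 for ab1 and 92.87 for ab2. A shared region at 28.77 kb, with 455.9 and 72.59, lay over 3 alternative coding starts. Other shared regions in the window lay at the starts of neighbouring genes, 82 bp from that of Ncln, 23 bp from that of Fzr1, an activator of the anaphase-promoting complex, and 285 bp from that of Gm48551. The highest single-antibody region was an ab1 peak of 109.2, 24.77 kb upstream and inside Celf5.

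In the family as a whole, 39 of the 66 shared regions had their midpoint in an intron, 3 in an exon, 19 upstream and 5 downstream. The gene spans, which are mostly intron, made up 703.3 kb of the 1103 kb of the 4 loci. No preference for introns is therefore read from this count. Intron shares from each antibody's own peaks were 62.4%, 63.5% and 66.7% for ab1, ab2 and ab3 (64.2% ± 2.22, SD, n = 3). A shared region with its midpoint within 1 kb of the main start was present at 3 of 4 genes, against 20.8% of protein-coding loci. None of these 3 regions had an ab3 peak, so that 0 were left without ab1 or without ab2. This count goes by midpoints. The Nfix region with all 3 antibodies and its midpoint at 1.749 kb covered alternative starts only 204 and 320 bp from the main start. The loci differed more in where the highest region lay, in an intron at Nfia and Nfic, downstream at Nfib and upstream at Nfix. At the window's edges, the last region inside 50 kb upstream of Nfix was the one at Calr, and the first one outside, at 56.75 kb, scored 62.0 with ab1 and 65.7 with ab2. Downstream of Nfib the first region outside, at 63.6 kb, scored 1662, 856.3 and 135.4 with ab1, ab2 and ab3. The one counted at 21.65 kb scored 1281, 934.7 and 127.8, so it was lower with ab1 and ab3 and higher with ab2.

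Shared regions at the 4 loci were wider than shared regions in general, with a median of 1118 bp against 865 bp, and 9 of 66 were at least 2500 bp wide, beside 2.13% of all shared regions. Median widths were 1462 bp at Nfic, 1365 bp at Nfix, 897 bp at Nfia and 870 bp at Nfib. The median ab1 score was 351.8 and the median ab2 score 154.1, beside 277.5 and 140.0 over all shared regions. By gene the ab1 median was 763.9 at Nfix, 390.7 at Nfic, 319.8 at Nfib and 248.3 at Nfia. Of the 66 regions, 5 scored 3100 or more with ab1, beside 2.25% of all shared regions. In the 15 regions with 3 antibodies, ab3 scores ran from 61.9 to 1202 with a median of 109.6.

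Percentiles give the rank of a score within each antibody's own list. The lists differ in length, with 51841 ab1 and 35310 ab2 peaks, so equal percentiles need not mean equal binding. The ab1 percentile exceeded the ab2 percentile in 52 of the 66 shared regions, near the 79.8% of all shared regions with both antibodies. The median difference was 10.7 percentile points at the 4 loci and 8.42 over the genome. It was 30.1 points at Nfic, where 10 of 11 regions ranked higher with ab1, and 10.9 at Nfib, 4.20 at Nfia and 3.95 at Nfix. Nfic also had the highest median GC content of the 4 loci in the central 200 bp, 59.5%, next to 59.25% at Nfix, 51.75% at Nfib and 49.5% at Nfia, and the part of base composition in the antibody difference was not tested.

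**Figure D4:**
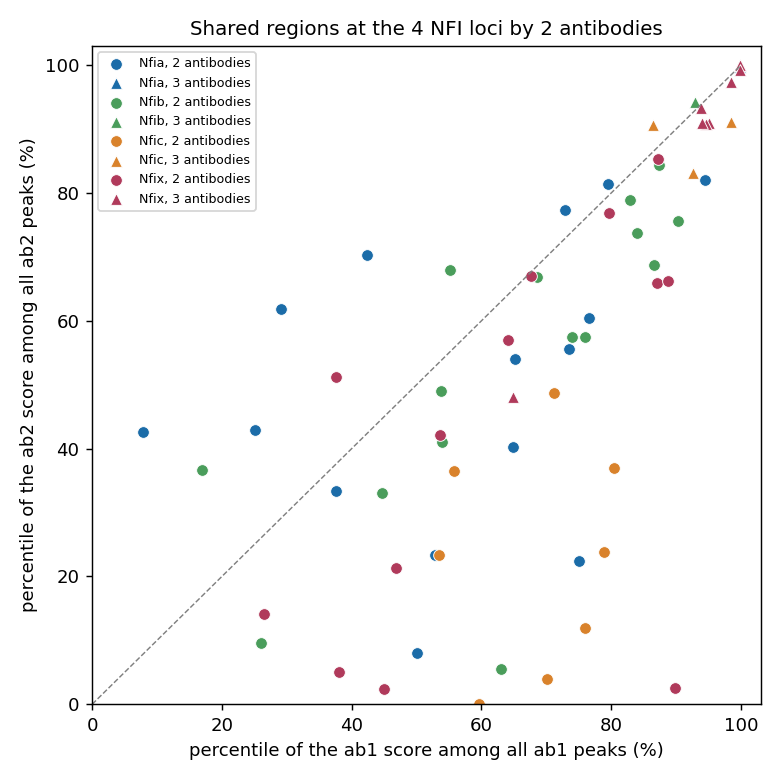
Percentile of the ab1 score among all ab1 peaks against the percentile of the ab2 score among all ab2 peaks for the 66 shared regions, by gene, with triangles for regions that also have an ab3 peak and a dashed line at equal percentiles. In 52 regions the ab1 percentile is higher, and the triangles gather at the upper right except for 1 Nfix region at 64.8 and 48.05.

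Extended E-boxes in the central 200 bp were present in 27 of the 66 shared regions, 40.9% (95% Wilson interval 29.9 to 52.95, counting error only), where 59.6% of all shared regions had one. The share was 47.1% at Nfia (8 of 17), 43.75% at Nfib (7 of 16), 45.45% at Nfix (10 of 22) and 18.2% at Nfic (2 of 11). In the windows of 200 bp that began 1000 bp beyond the region ends it was 15.2% and 27.3% at the 4 loci and 22.33% and 22.35% over the genome. Of the 15 regions with 3 antibodies 8 had the motif centrally, or 53.3%, beside 63.4% of all regions with 3 antibodies. Of the 51 with 2 antibodies 19 did, or 37.25%, beside 58.6%. From each antibody's own peaks at the 4 loci the antibodies ab1, ab2 and ab3 gave shares of 41.6%, 47.3% and 66.7% (51.85% ± 13.15, SD, n = 3), beside 59.4%, 59.2% and 72.5% of each antibody's peaks over the genome. Without ab1 the order turned, with 11 of 16 shared regions at the 4 loci, 68.75%, beside 64.9% of the 7203 over the genome.

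Over whole regions the motif occurred at least once in 56 of the 66, or 84.85%, beside 90.3% of all shared regions. Its density was 2.83 matches per kb at the 4 loci and 3.28 per kb over all shared regions. The windows at the 4 loci were richer in GC, with a median of 55.25% against 51.0%, and the regions were wider. Whether width or base composition bears on the lower central share was not tested. With any CANNTG counted, 44 of 66 regions, 66.7%, had an E-box, beside 83.7% of all shared regions.

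**Figure D5:**
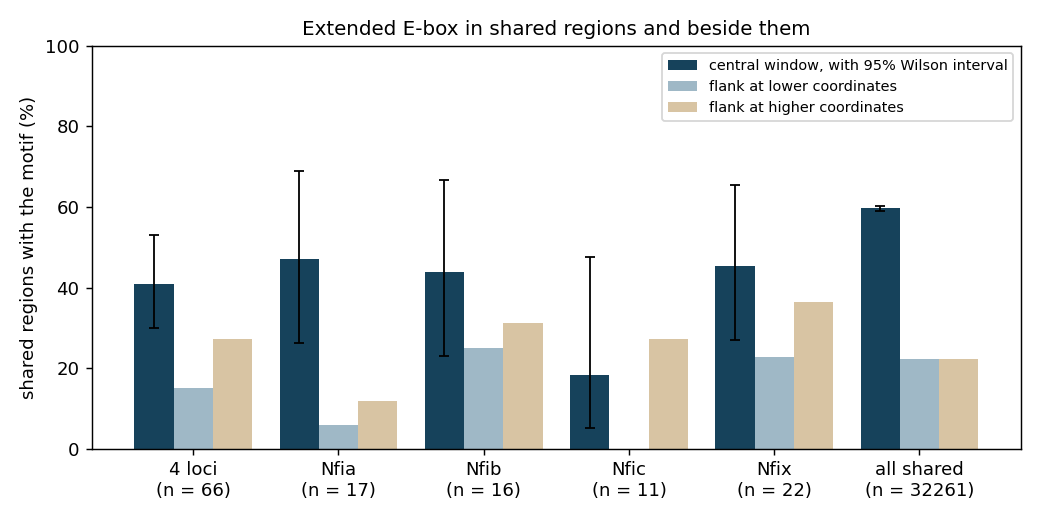
Percentage of shared regions with the extended E-box in the central 200 bp (dark bars, with 95% Wilson intervals) and in equal windows 1000 bp beyond either end of the region. The central share is 40.9% over the 4 loci and 59.6% over all 32261 shared regions, and Nfic is lowest at 18.2% of 11 regions.

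Among the forms of CANNTG, counted as regions with at least 1, CAGATG was the most frequent at the 4 loci with 20 of 66 regions (30.3%, beside 43.1% of all shared regions). CAGCTG followed with 13 (19.7% beside 28.1%) and CACATG with 10 (15.2% beside 16.85%). CATATG, present in 11.7% of all shared regions, was found in 1 of the 66, at Nfix. CAGCTG occurred in 7 of 22 regions at Nfix and 2 of 17 at Nfia, and CAGATG in 4 of 22 at Nfix and 7 of 17 at Nfia.

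The site of the NFI proteins themselves was also searched. Its full palindrome, TTGGC and GCCAA with 5 bases between, occurred in 1 of the 66 shared regions, the one at the Nfia start, and in 0.226% of all shared regions. It occurred as well in 1 of the 34 single-antibody regions, which was an ab1 peak of 255.8 in intron 2 of Nfia. One arm of the palindrome, TTGGC, was present in the central 200 bp of 39 of 66 regions, 59.1%, beside 42.2% of all shared regions, and its share was highest at Nfib with 12 of 16. These windows were also richer in GC, with a median of 55.25% against 51.0%, and the part of base composition in this share was not tested. A match is a string of letters and says nothing of NFI binding, which was not measured.

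Beside their own loci, 13 genes linked to NFI proteins by textbook knowledge of brain and glia, not of the forebrain alone, were counted as a list: Sox9, Hes1, Ezh2, Bbx, Insc, Gfap, Fabp7, Apcdd1, Mmd2, Zcchc24, Cntn2, Gabra6 and Efnb1. A shared region lay at 12 of the 13, where 67.6% of protein-coding loci had one, and a region with 3 antibodies at 6 of 13, where 26.7% did. Their median density was 2.44 shared regions per 100 kb. Cntn2, an axonal adhesion molecule, had the most shared regions, 7, of which 4 had all 3 antibodies. Gabra6, a GABA receptor subunit of cerebellar granule cells, had no peak of any antibody.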

How the data were processed

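NEUROD2 ChIP-Seq peaks were taken from the 3 deposited peak lists, 1 per antibody. The authors mapped reads to mm10 with Bowtie (submitters' processing notes), removed duplicates and called peaks with MACS for each antibody against a GFP library of the same host species. The deposited score of a peak is the authors' peak caller's −log10 p-value times 10, was not scaled between libraries, and carries no read depth. The GFP libraries were not analysed here.

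From these lists, overlaps of at least 1 bp were merged, midpoints were placed on GENCODE M21 transcripts, and motifs were read from GRCm38. Members and lists were chosen with earlier results of these data known, and no test was made. Results that need certain genes are not reported here. The rule for named regions took, at each gene, the 3 highest-ranking shared regions, the shared region nearest the start and the highest single-antibody region. Printed sequences were those of the highest-ranking region and the region within 1 kb of the start, and the further ones named in the text were chosen after their values were seen. Wilson intervals were at 95%. Python 3.11.15, numpy 2.4.6, scipy 1.17.1 and matplotlib 3.10.9 were used. Merging, placement and motif search were first tested on simulated data, and the gene score was not. Alternatives were a score of at least 100, other flanks, overlaps, windows, motifs, transcripts and decay lengths, and each antibody left out, with the starts of all transcripts in the gene score added after seeing the data. Of the NFI genes, Nfib had no entry in the RefSeq promoter table, and that table is not used in the text.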

Additional observations from a re-analysis of the deposited data

How the results depend on the processing

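Of 94 alternatives computed, 46 left the value within the spread over antibodies or within 1.5 times the count, and 48 moved it. Peaks scoring at least 100 left 43 shared regions, 8 regions with all 3 antibodies and 55.81% of shared regions in introns. Closest-gene scores were then 0.350 for Nfia and 0 for Nfic. The same cut lowered the density of shared regions at Nfic to 2.586 per 100 kb, which placed Nfic below Nfib. The gene span alone held 66 regions, 43 shared, 9 with all 3 antibodies and 1 near a start site, with 93.02% in introns, and 100 kb flanks gave 47.56% in introns, both by construction. An E-box share of 66.7% at the 4 loci resulted from CANNTG, beside 83.7% of all shared regions, and 60.6% from the central 400 bp, beside 75.6%. Midpoints outside exons of every transcript gave 65.15% in introns, and start sites of all transcripts gave 9 nearby regions. With a decay of 1000 bp the scores were 0.00456 for Nfic and 0.756 for Nfix, and with 50000 bp they were 4.22 for Nfib, 0.898 for Nfic and 8.07 for Nfix. Start sites of all annotated transcripts, chosen after seeing the data, gave closest-gene scores of 4.226 for Nfia, 2.779 for Nfib, 2.678 for Nfic and 5.617 for Nfix.

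Leaving out each antibody in turn, the shared regions ranged from 16 (without ab1) and 17 (without ab2) to 66 (without ab3), the E-box share from 40.91% to 68.75% (59.6% to 64.9% over all shared regions, with the 4 loci higher only without ab1), the intron share from 59.09% to 70.59%, and regions near a start site from 0 to 3. Densities per 100 kb ranged from 0.680 to 3.85 at Nfia, 0.317 to 5.07 at Nfib, 1.94 to 7.11 at Nfic and 4.69 to 11.5 at Nfix, and closest-gene scores from 0 to 1.32, 0 to 1.43, 0 to 0.340 and 1.45 to 2.755 in the same order. Nfix had the highest density and score with each antibody left out, whereas with a decay of 1000 bp the score of Nfia (0.879) was above that of Nfix. The causes were not tested, except that a set with few ab3 peaks leaves few shared regions. No paired analysis was possible because the GFP libraries gave no peak list here and no result comes from a test. The depth behind single peaks is unknown.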
